A study of Homo sapiens with 26 samples.

Results

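Knockdown of SARNP was compared with knockdown of DDX39A in 786-O cells, an established line of human clear cell kidney cancer without working VHL. The comparison took the mean of 4 libraries given siRNA 3 or siRNA 9 against SARNP minus the mean of 4 libraries given siRNA 1 or siRNA 4 against DDX39A, with 2 libraries for each siRNA. These are 8 of the 26 libraries of a series in which genes of nuclear speckle proteins were silenced, and 2 libraries given a non-targeting siRNA (NTC) in the same table served as reference. All of these cells grew in RPMI medium with serum under atmospheric oxygen, received a Qiagen siRNA with DharmaFECT 1, were split after 24 h and were lysed 48 h after transfection. Poly(A) RNA was read as paired ends of 42 bases. The values are normalized counts per gene, that is gene counts scaled by 1 factor per library, and 11673 of the 11679 genes in the table had a mean of at least 10 and were tested. The first gene under that minimum, PSMD6-AS2, had a mean of 9.76 and the first above it, GPR15, 10.04. Values joined by a slash are those of the 2 libraries of a group. Both siRNAs of a target must agree before a difference can be read as one between targets, so the weight here lies on genes whose SARNP siRNAs both lie apart from both DDX39A siRNAs.

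SARNP and DDX39A are both known from the nuclear export of mRNA. DDX39A is an ATP-dependent RNA helicase and a close paralog of DDX39B, the helicase at the core of TREX, the complex that couples transcription and splicing to mRNA export. SARNP is a small RNA-binding protein that binds these helicases, and together with ALYREF they help hand mature mRNA to the export receptor NXF1, which carries it through the nuclear pore. DDX39B was not analysed here.

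Each siRNA lowered its own target and left the other at or above 94.0% of control. SARNP stood at 907/942 in the control libraries, 119/130.3 with SARNP siRNA 3 and 84.4/72.4 with SARNP siRNA 9, against 1003/1021 and 845/892 with DDX39A siRNAs 1 and 4. SARNP mRNA was therefore at 13.5% and 8.48% of control with its own siRNAs and at 109% and 94.0% with the siRNAs against DDX39A. DDX39A stood at 3273/3146 in the controls, 451/447 with DDX39A siRNA 1 and 521/541 with siRNA 4, against 3822/3680.2 and 3336/3258 with SARNP siRNAs 3 and 9. That left 14.0% and 16.5% of the DDX39A mRNA with its own siRNAs, beside 117% and 103% with the siRNAs against SARNP. Protein was not measured in these files.

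Libraries held between 9959064 and 18086176 gene reads. The labels do not say whether the 2 libraries of an siRNA are separate transfections, so their spread may be technical, and every adjusted p below takes its error from libraries within an siRNA. All 8 markers of renal carcinoma cells were in the table, and their summed level was 79204 to 82139 in the controls, 65526 to 73166 with SARNP siRNAs and 76477 to 83465 with DDX39A siRNAs. Of the markers of other cell types, 2 of 8 leukocyte, 1 of 6 hepatocyte, 2 of 8 fibroblast, 3 of 6 neural and 0 of 6 endothelial genes were in it. PTPRC and ALB, which define leukocytes and hepatocytes, were not analysed here.

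Libraries with SARNP siRNAs and libraries with DDX39A siRNAs differed in many genes, but few of the differences were shared by every siRNA pair. On the mean of both siRNAs, 3047 genes were higher with SARNP siRNAs (26.1% of the genes tested) and 3214 were lower (27.5%), in limma with Benjamini-Hochberg adjustment over all 11673 genes. A gene was counted as apart in all 4 siRNA pairs when each SARNP siRNA differed from each DDX39A siRNA at an adjusted p below 0.05 with 1 sign. By that rule 364 genes were higher with SARNP siRNAs (3.12%) and 506 were lower (4.33%). These 870 genes are 13.9% of the 6261 called on the mean. A further 1520 of the genes called on the mean, or 24.3%, were called with opposite signs in different pairs. The siRNAs of one target also differed from each other, with 7487 genes (64.1%) called between SARNP siRNAs 9 and 3 and 5903 genes (50.6%) between DDX39A siRNAs 4 and 1. Counts of this size therefore do not by themselves mark a difference between targets.

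**Figure D1:**
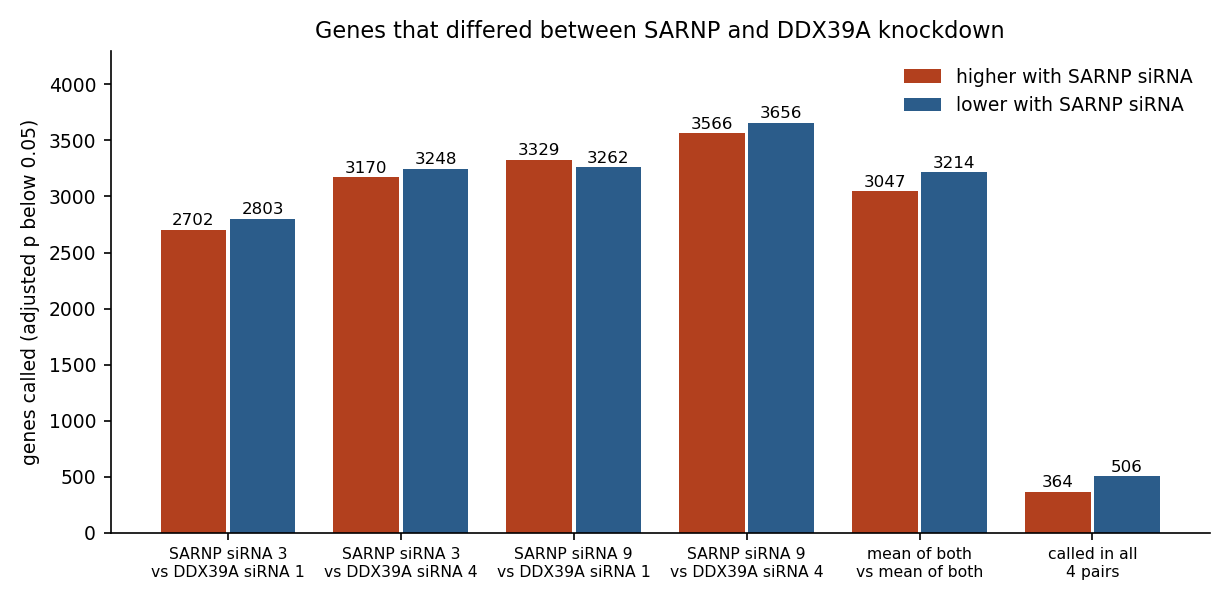
Number of genes called (vertical axis, limma, adjusted p below 0.05) as higher or lower with a SARNP siRNA than with a DDX39A siRNA, for each of the 4 siRNA pairs, for the mean of both siRNAs, and for genes called with 1 sign in all 4 pairs. Single pairs called 2702 to 3566 genes higher and 2803 to 3656 lower, while 364 and 506 were called in all 4.

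The genes apart in all 4 pairs moved by modest amounts. Their median log2 difference was 0.44 for the higher genes and -0.48 for the lower ones, beside 0.00 over all genes tested. Of the 364 higher genes, 34 differed by more than 2-fold on the mean and 6 did so in every pair, and of the 506 lower genes 59 and 12 did. In 358 of the 364 and in 502 of the 506, all 4 libraries of one target lay beyond all 4 of the other. Over all 11673 genes, the 4 SARNP libraries lay above the 4 DDX39A libraries in 843 (7.22%) and below them in 905 (7.75%). Choosing genes called in all 4 pairs itself makes such a gap likely. The control mean lay between the SARNP mean and the DDX39A mean for 646 of the 870 genes (74.3%), beside 4218 of all 11673 (36.1%). The choice of genes with a gap between targets itself raises this share. A single siRNA of a target could still lie on the other side of the controls.

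With the 2 siRNAs of a target as the unit, 2 against 2, 0 genes passed in limma at an adjusted p below 0.05. The count at an unadjusted p below 0.05 was 333 genes (2.85%), fewer than that threshold alone would be expected to pass if no gene differed. DDX39A itself ranked first at an adjusted p of 0.073, SARNP second at 0.17, and NUAK2, CDH6, CLEC4E, CCL2, CXCL1 and RAB28 were among those that followed at an adjusted p of 1. The differences below are therefore differences between these siRNAs and these libraries, and how other siRNAs against the same genes would behave was not tested.

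Of the 27 lists of pathways and gene groups, the one with the lowest median was made of targets of NF-kB, the transcription factor family that switches on cytokines, chemokines and adhesion molecules, and that also switches on its own inhibitors and subunits. Of 25 tested genes of this list, 22 were lower on the mean (27.5% over all genes) and 2 higher, and 13 were lower in all 4 pairs (4.33% over all genes) with none higher. The median log2 difference of the list was -0.59. Its medians against the controls were -0.27 and -0.26 with SARNP siRNAs 3 and 9 and 0.59 and 0.27 with DDX39A siRNAs 1 and 4, 4 contrasts that share the 2 control libraries. The leukocyte markers in the table, CD68 and LAPTM5, were also lower on the mean, summing to 152 to 205 with SARNP siRNAs, 235 to 305 with DDX39A siRNAs and 211 to 213 in the controls. Neither was apart in all 4 pairs. Their median against the controls was -0.74 with SARNP siRNA 3 but 0.09 with SARNP siRNA 9. The part of these markers in the result was not tested.

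Several of these genes carry a match to the kB consensus, the sequence that NF-kB binds, in the 250 bases before their start, and the stretches around it are shown because the list was drawn from known targets of that factor. RefSeq promoter windows (GRCh38.p14) were at hand for 9422 of the tested genes, and both strands were searched, counting overlapping matches. Capitals mark the matches, each sequence is given 5′ to 3′ on the strand of its gene, and the genes shown were picked after their values were seen.
CXCL1 (chr4:73869275-73869364, plus strand): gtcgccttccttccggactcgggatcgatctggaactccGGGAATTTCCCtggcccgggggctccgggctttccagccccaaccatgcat
VCAM1 (chr1:100719640-100719729, plus strand): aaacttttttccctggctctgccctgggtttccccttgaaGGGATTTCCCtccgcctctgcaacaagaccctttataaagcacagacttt
IL6 (chr7:22727087-22727176, plus strand): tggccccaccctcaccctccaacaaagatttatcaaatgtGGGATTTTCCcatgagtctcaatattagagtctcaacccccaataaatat
TNFAIP3 (chr6:137867164-137867253, plus strand): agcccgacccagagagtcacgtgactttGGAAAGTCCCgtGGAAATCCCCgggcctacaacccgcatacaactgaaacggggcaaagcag
NFKBIA (chr14:35404781-35404870, minus strand): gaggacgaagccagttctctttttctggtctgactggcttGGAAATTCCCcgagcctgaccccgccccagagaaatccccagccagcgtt
NFKB1 (chr4:102501270-102501358, plus strand): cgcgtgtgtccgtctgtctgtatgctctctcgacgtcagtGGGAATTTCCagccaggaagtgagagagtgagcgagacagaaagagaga

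A match stood in 11 of the 20 genes of the list with a window and in 7 of the 10 of them that were lower in all 4 pairs. Over all tested genes with a window the share was 15.6%, over those lower in all 4 pairs it was 20.8% (82 of 394), and over those higher in all 4 pairs it was 9.15% (28 of 306). The 82 include the 7 list members. The kB consensus is itself rich in G and C, and GC content differed between these sets. The median GC content of transcripts was 52.9% for genes lower in all 4 pairs, 43.0% for the higher ones and 48.4% over all. The part of GC content in these shares was not tested. A match describes these letters only and does not show binding.

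Chemokines and cytokines came first by size. CXCL1, which attracts neutrophils, stood at 54.1/49.1 in the controls, 10.4/13.7 with SARNP siRNA 3, 25/22.8 with siRNA 9, 78.9/79.1 with DDX39A siRNA 1 and 89.2/71.1 with siRNA 4. The SARNP libraries were below the controls and the DDX39A libraries above them, with no overlap between targets. The difference was -2.16 log2 units (SE 0.16, limma adjusted p = 3.3e-14), or 4.47-fold.

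CXCL8, the chemokine also called interleukin-8, was at 55.3/72.5 and 91.8/72.4 with SARNP siRNAs 3 and 9, against 374/468 and 179/137 with DDX39A siRNAs 1 and 4 and 206/254 in the controls. The targets did not overlap, but DDX39A siRNA 4 lay below the controls and DDX39A siRNA 1 above them. The log2 difference between targets was -1.82 (SE 0.10, limma adjusted p = 1.9e-17).

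IL6, an inflammatory cytokine, was at 43.8/52.5 and 56.1/47.6 with the SARNP siRNAs, against 182/150.1 and 131/92 with DDX39A siRNAs 1 and 4. Its control libraries, at 89.1/90.8, lay between the targets, just below the lower library of DDX39A siRNA 4. The log2 difference was -1.42 (SE 0.12, limma adjusted p = 1.6e-12). CCL2, which attracts monocytes, was at 56.2/61.9 in the controls, 53.2/52.5 and 41.9/30.7 with the SARNP siRNAs and 129/124 and 181/157 with the DDX39A siRNAs. Here most of the gap lay above the controls, in the DDX39A libraries, and the log2 difference was -1.72 (SE 0.12, limma adjusted p = 7.4e-15).

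CSF1, the growth factor of macrophages, differed by -0.59 log2 units (SE 0.03, limma adjusted p = 1.2e-17), with SARNP libraries at 2132/2240.5 and 2141/2093 beside controls at 2172/2259. DDX39A siRNAs 1 and 4 gave 2777/2750.2 and 3944/3667, all above the other 6 libraries. Cytokines without a call in all 4 pairs included LIF and IL11, for which the siRNAs of a target disagreed. IL11 stood at 84.5/61 with SARNP siRNA 3 but 717/700.3 with SARNP siRNA 9, on either side of 135/147 and 111/111 with the DDX39A siRNAs.

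Feedback inhibitors and subunits of the pathway were lower with SARNP siRNAs too. TNFAIP3, the enzyme A20 that edits ubiquitin on NF-kB signalling proteins, was at 258/283 and 224/216 with the SARNP siRNAs, 327/329 in the controls and 556/557 and 524/444 with the DDX39A siRNAs. Each SARNP library lay below and each DDX39A library above both controls, and the log2 difference was -1.09 (SE 0.06, limma adjusted p = 1.2e-17). NFKBIA, which encodes the inhibitor that holds NF-kB in the cytoplasm, was at 639.7/739 and 546/511 against 1042/1034 and 865/782, with controls at 754/746. Its log2 difference was -0.62 (SE 0.05, limma adjusted p = 1.1e-13), and the closest pair, SARNP siRNA 3 against DDX39A siRNA 4, differed by -0.26.

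The subunit genes NFKB1, NFKB2 and RELB differed by -0.39, -0.61 and -0.65 log2 units (limma adjusted p = 1.1e-11, 3.6e-17 and 2e-11). For RELB the SARNP libraries, at 338/369 and 425/330.3, spread around the controls at 359/355, and the DDX39A libraries, at 622/630.3 and 547/499, lay above all of them. The same arrangement held for ICAM1, an adhesion molecule for leukocytes, with 1404/1531 for SARNP siRNA 3, 1417/1450.3 for the controls and 2659/2622 and 2205/2098 for the DDX39A siRNAs, while SARNP siRNA 9 lay above the controls at 1846/1664. TRAF1, a signalling adaptor, differed by -0.69 (SE 0.08, limma adjusted p = 7.4e-10).

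VCAM1, another adhesion molecule, shows how far the siRNAs of a target can part within a gene called in all 4 pairs. SARNP siRNA 9 gave 169/149.8 and SARNP siRNA 3 863/831, on either side of the controls at 675/608, and DDX39A siRNAs 1 and 4 gave 1008/966 and 1032/975. The mean log2 difference of -1.43 (SE 0.05, limma adjusted p = 4.2e-24) thus came mostly from SARNP siRNA 9, and the smallest pair difference was -0.22. It was no longer apart in all 4 pairs without SARNP siRNA 3 replicate 2, DDX39A siRNA 1 replicate 1 or DDX39A siRNA 4 replicate 1.

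**Figure D2:**
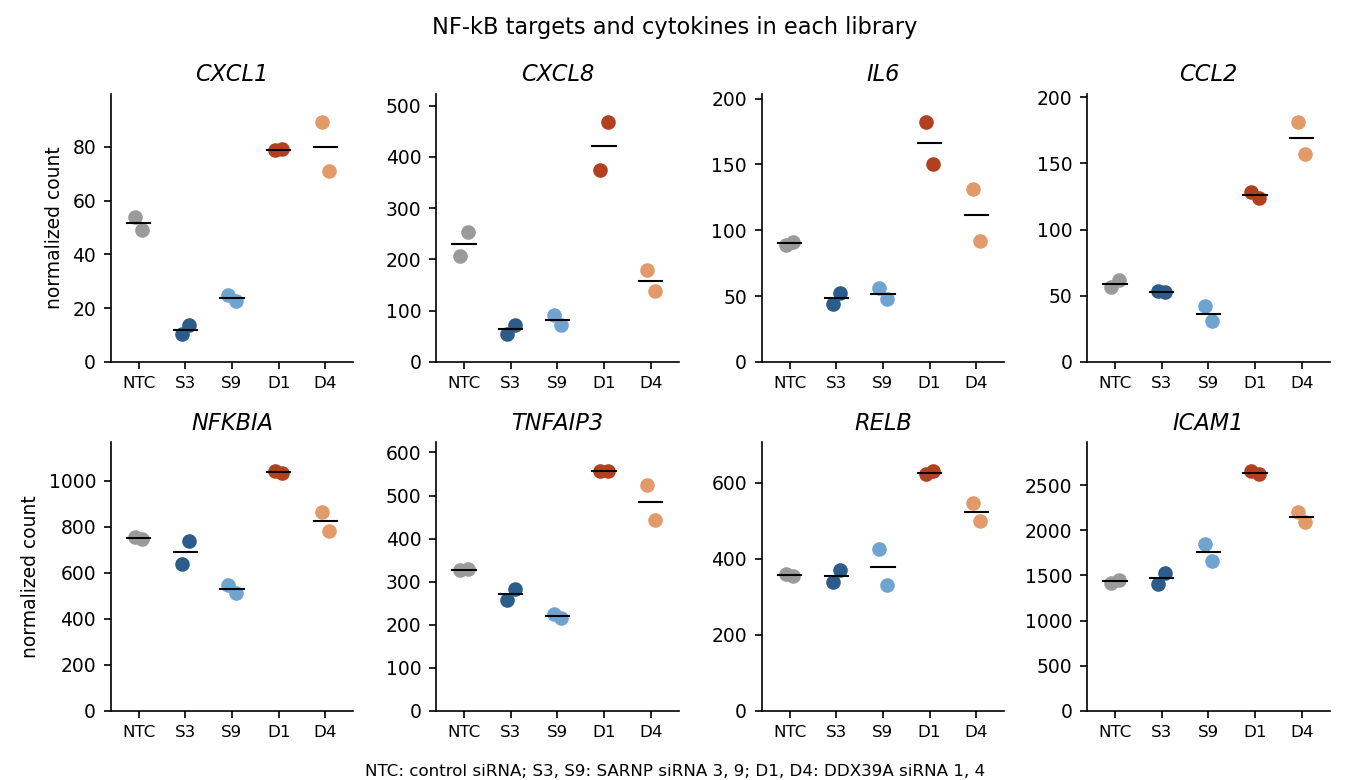
Normalized count (vertical axis, from 0) of 8 NF-kB targets in each of 10 libraries (points), with the mean of the 2 libraries of a group as a bar, for control siRNA, SARNP siRNAs 3 and 9 and DDX39A siRNAs 1 and 4. In each panel every SARNP library lies below every DDX39A library, and for CXCL1, IL6, CCL2, NFKBIA and TNFAIP3 the controls lie between.

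Genes that serum response factor (SRF) and the YAP-TEAD complex switch on, which encode actin, its binding proteins and secreted matricellular proteins, formed another group lower with SARNP siRNAs. Of 30 tested, 26 were lower on the mean (27.5% over all genes) and 1 higher (26.1%), and 11 were lower in all 4 pairs (4.33% over all genes) with none higher, at a median log2 difference of -0.41. The medians against the controls were -0.30 and -0.15 with SARNP siRNAs 3 and 9 and 0.02 and 0.20 with DDX39A siRNAs 1 and 4. The count of 11 varied with the processing: it was 6 with quantile normalization, 7 without SARNP siRNA 3 replicate 1 and 7 after a trend of level with GC content was taken out of each library.

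CYR61, a secreted protein that binds integrins, was at 6825/6717 in the controls, 3119/3375 and 5834/5727 with SARNP siRNAs 3 and 9 and 8499/8696 and 7437/7359 with DDX39A siRNAs 1 and 4. Both SARNP siRNAs lay below the controls and both DDX39A siRNAs above, and the log2 difference was -0.88 (SE 0.03, limma adjusted p = 2.1e-24). SRF itself was at 1007/995 and 1262/1277 against 1447/1563 and 1527/1451, with controls at 1411/1335, a log2 difference of -0.41 (SE 0.04, limma adjusted p = 1.4e-11).

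The SRF promoter holds a pair of matches to the CArG consensus, the element that SRF binds, and CNN2 and ACTG1 hold 1 each, marked in capitals in these RefSeq stretches (GRCh38.p14), shown because SRF is both a member and the regulator the list is named for.
SRF (chr6:43171219-43171268, plus strand): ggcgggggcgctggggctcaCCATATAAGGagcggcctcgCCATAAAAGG
CNN2 (chr19:1026479-1026568, plus strand): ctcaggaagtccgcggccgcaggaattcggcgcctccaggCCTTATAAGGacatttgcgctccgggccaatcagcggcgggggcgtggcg
ACTG1 (chr17:81512844-81512933, minus strand): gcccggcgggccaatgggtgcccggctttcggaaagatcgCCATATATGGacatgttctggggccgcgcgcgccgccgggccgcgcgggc

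Matches to that consensus within 250 bases before the start, on both strands, stood in 6 of 25 genes of the list with a window, in 3 of the 8 that were lower in all 4 pairs, and in 1.46% of all tested genes with a window. The list was again drawn from known targets.

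Cytoskeletal members came in a range of sizes. ACTB, cytoplasmic beta-actin, was at 44513/45174 and 37215/39610.2 with SARNP siRNAs 3 and 9, 52279.8/49828 in the controls and 49372/47586 and 59055/63312 with DDX39A siRNAs 1 and 4. DDX39A siRNA 1 lay below the controls here and siRNA 4 above, and the log2 difference between targets was -0.39 (SE 0.03, limma adjusted p = 1.2e-13). MYL9, a regulatory light chain of myosin, was at 725/799.7 and 1039/960.2 with the SARNP siRNAs, 1096/1095 in the controls and 1142/1128 with DDX39A siRNA 1, but 2722/2598 with DDX39A siRNA 4. Its log2 difference of -0.99 (SE 0.04, limma adjusted p = 4.1e-22) rested mostly on that 1 siRNA, since the smallest pair difference was -0.18.

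TPM1 (tropomyosin), VCL (vinculin, which links integrins to actin) and MYH9 (a nonmuscle myosin heavy chain) differed by -0.45, -0.57 and -0.42 log2 units (limma adjusted p = 1.3e-16, 1.4e-19 and 1.5e-14). Of this list only CYR61, MYL9, VCL and CNN2 were followed gene by gene through the alternatives. Which of the other members lost the call as the count fell is therefore not given. VCL was no longer apart in all 4 pairs with quantile normalization, nor were CNN2 and MYL9 without SARNP siRNA 9 replicate 2. CTGF, another matricellular YAP-TEAD target, was called on the mean (-0.46, limma adjusted p = 6.8e-08) with its siRNAs in disagreement: it stood at 154/161 and 453/517 with SARNP siRNAs 3 and 9 and at 267/281 and 528/534 with DDX39A siRNAs 1 and 4.

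Extracellular matrix and mesenchymal genes were lower with SARNP siRNAs in 18 of 26 tested members (27.5% over all genes) and higher in 2 (26.1%), at a median of -0.34, and 8 were lower in all 4 pairs (4.33% over all genes) with none higher. The medians against the controls were 0.04 and -0.35 with SARNP siRNAs 3 and 9 and 0.05 and 0.44 with DDX39A siRNAs 1 and 4, so that SARNP siRNA 9 and DDX39A siRNA 4 stood farthest from the controls. THBS1, the adhesive glycoprotein thrombospondin, was at 9575/10048 with SARNP siRNA 3, level with the controls at 9692/10016, and at 4558/4432 with SARNP siRNA 9, against 18448/19937 and 16820.4/15004 with DDX39A siRNAs 1 and 4. Its log2 difference was -1.39 (SE 0.03, limma adjusted p = 1.6e-29). CDH6, a cadherin of the developing kidney tubule, was at 1144/1231 and 903/789.6 against 2391/2025 and 2691/2436, with controls at 1066/1056. SARNP siRNA 3 lay slightly above and siRNA 9 below the controls, with all DDX39A libraries far above, and the log2 difference was -1.25 (SE 0.05, limma adjusted p = 2.2e-23).

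The paired chains of collagen IV, the network-forming collagen of basement membranes, differed alike, COL4A1 by -0.50 and COL4A2 by -0.44 log2 units (limma adjusted p = 3.3e-16 and 1.6e-14). COL4A2 stood at 9900.5/10242 and 8948/8346 with the SARNP siRNAs, 12240.3/11616 in the controls and 11704/11223 and 14596/13316 with the DDX39A siRNAs. Chains of the beaded-filament collagen VI differed more, COL6A1 by -0.94 and COL6A2 by -0.84 (limma adjusted p = 4e-19 and 2.2e-20), with the highest level in both in DDX39A siRNA 4. LAMC1 (a laminin chain) and CDH2 (N-cadherin) differed by -0.37 and -0.40 (limma adjusted p = 6.7e-14 and 1.1e-13). Fibronectin, FN1, had no shared direction: it was at 29663/30022 and 9723/9117 with SARNP siRNAs 3 and 9 and 21013/19809.5 and 49354/46117 with DDX39A siRNAs 1 and 4.

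Among 12 tested integrin subunits 6 were lower on the mean and 1 higher (27.5% and 26.1% over all genes). Their median was -0.17 on the mean but 0.11 for SARNP siRNA 9 against DDX39A siRNA 1. ITGAV, the alpha chain of several matrix receptors, was the one apart in all 4 pairs (-0.52, SE 0.03, limma adjusted p = 1.6e-16), though not without SARNP siRNA 3 replicate 1 or DDX39A siRNA 1 replicate 2. Of the fibroblast markers, COL1A1 and PDGFRB summed to 39.2 to 54.6 with SARNP siRNAs, 39.5 to 99.0 with DDX39A siRNAs and 92.3 to 95.05 in the controls. Whether fewer cells of one kind or less RNA per cell lay behind any level here cannot be told apart in bulk RNA.

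**Figure D3:**
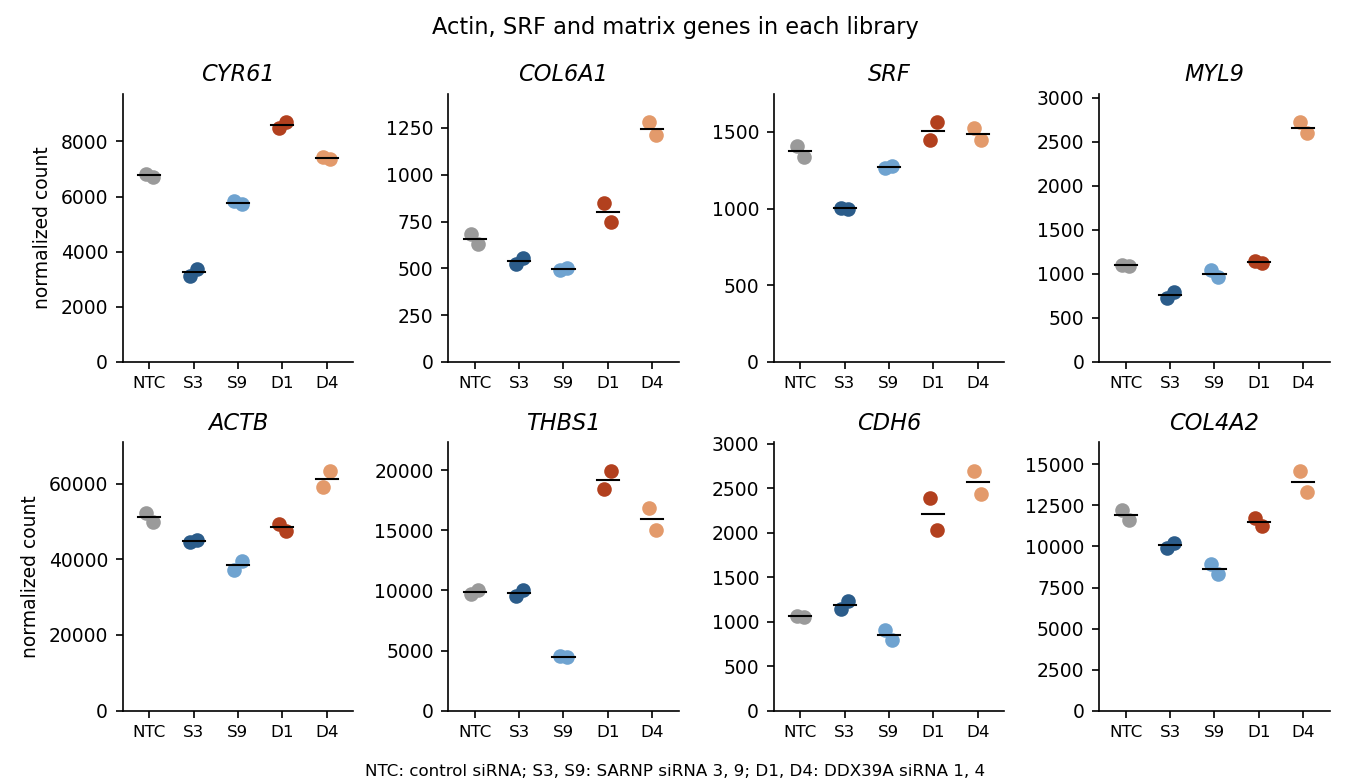
Normalized count (vertical axis, from 0) of 8 actin, SRF and matrix genes in each of 10 libraries (points), with the mean of the 2 libraries of a group as a bar, for control siRNA, SARNP siRNAs 3 and 9 and DDX39A siRNAs 1 and 4. Every SARNP library lies below every DDX39A library in each panel, and in the MYL9 panel DDX39A siRNA 4 stands apart at 2722/2598.

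The 12 genes lower with SARNP siRNAs by the largest smallest pair difference included CLEC4E, NUAK2, CCL2, IL6, TGFB1I1, KIAA1644, SAA1, CXCL8, RAB28, CDH6 and CTHRC1. CLEC4E, a C-type lectin receptor of innate immunity, was at 53.2/58.8 and 33.8/27.8 with SARNP siRNAs 3 and 9, 79.6/90.8 in the controls and 154/151 and 294/249 with DDX39A siRNAs 1 and 4. Both siRNAs of SARNP lay below the controls and both of DDX39A above, and the log2 difference was -2.27 (SE 0.11, limma adjusted p = 1.4e-19), or 4.81-fold. SAA1, an acute-phase protein, differed by -1.22 (SE 0.12, limma adjusted p = 9.7e-11).

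NUAK2, a kinase related to AMPK, was at 161/190.2 and 157/139.9 with the SARNP siRNAs, 259/245 in the controls and 459/505 and 441/396 with the DDX39A siRNAs. The siRNAs of each target gave nearly the same level, and the log2 difference was -1.47 (SE 0.07, limma adjusted p = 9e-20), with -1.25 in the closest pair.

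TGFB1I1, a focal adhesion adaptor, stood at 130.4/143 and 157/121 with the SARNP siRNAs, 259/271 in the controls, and 307/258 and 469/449 with DDX39A siRNAs 1 and 4. The SARNP siRNAs lay at a like level, DDX39A siRNA 1 at that of the controls and DDX39A siRNA 4 above it, and the targets differed by -1.38 (SE 0.08, limma adjusted p = 1.6e-17). RAB28, a small GTPase, was at 206/218 and 167/169 against 424/416 and 391/419, with controls at 339/302. All SARNP libraries were below and all DDX39A libraries above the controls, with a log2 difference of -1.13 (SE 0.06, limma adjusted p = 1.7e-17). HMOX1, the enzyme that breaks down heme, was at 667/604 and 871/952 with SARNP siRNAs 3 and 9, 1068/1019 in the controls and 1719/1643 and 2533/2905 with DDX39A siRNAs 1 and 4, a log2 difference of -1.49 (SE 0.04, limma adjusted p = 3.1e-26).

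CTHRC1, a secreted protein with a collagen-like repeat, and KIAA1644 differed by -1.07 and -1.34 log2 units (limma adjusted p = 4.4e-14 and 2e-12). PDZK1IP1, a membrane protein of proximal tubule cells, and ORAI2, a calcium channel subunit, differed by -1.30 and -1.29 (limma adjusted p = 5.3e-20 and 5.6e-22). In both, each SARNP siRNA was called below the controls and each DDX39A siRNA above them, but the SARNP siRNAs differed in size: ORAI2 fell by 1.61 with siRNA 3 and by 0.31 with siRNA 9 on the log2 scale.

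In the other direction, the 12 genes higher with SARNP siRNAs by the same rule were ETV1, KLHL4, SMIM10, SH3BP5-AS1, ZNF678, NEGR1, HGD, TMEM144, DANCR, CPEB4, ARSE and ATP7A. TMEM144 was not apart in all 4 pairs with DESeq2 or without SARNP siRNA 3 replicate 1 or DDX39A siRNA 1 replicate 1. ETV1, a transcription factor of the ETS family, was at 104/113 and 64.8/74.4 with SARNP siRNAs 3 and 9 and at 29.3/26.4 and 25.9/22.1 with DDX39A siRNAs 1 and 4. DDX39A libraries lay at the level of the controls, 22.3/28.8, and the log2 difference was 1.72 (SE 0.16, limma adjusted p = 7.5e-12), or 3.28-fold.

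KLHL4, a protein of the kelch-like family, was at 151/131 and 198/173 against 64.9/76.8 and 37.5/39.6, with controls at 84.9/76.9. SARNP siRNAs lay above the controls and DDX39A siRNA 4 below them, and the log2 difference was 1.61 (SE 0.11, limma adjusted p = 3.3e-15). HGD, an enzyme of tyrosine breakdown, was at 299.5/316 and 390.4/371 against 174/195 and 185/192, and all 8 were above the controls at 140.0/147. SARNP siRNAs raised it further than DDX39A siRNAs did, by 0.87 log2 units (SE 0.07, limma adjusted p = 3.6e-13).

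CPEB4, which binds cytoplasmic polyadenylation elements, was at 229/209 and 296/344 with the SARNP siRNAs, 152/177 in the controls, 135/142 with DDX39A siRNA 1 and 52.6/51.3 with siRNA 4. The order of the siRNAs was therefore SARNP 9, SARNP 3, DDX39A 1, DDX39A 4, and the log2 difference was 1.63 (SE 0.09, limma adjusted p = 2.4e-18). NEGR1, a neuronal adhesion protein, had another arrangement: SARNP siRNAs, at 214/199 and 169/225, lay at or below the controls at 225/226, with the libraries of siRNA 9 apart. DDX39A siRNAs, at 119.6/112 and 82.9/96.7, lay far below, with a log2 difference of 0.97 (SE 0.09, limma adjusted p = 1.4e-11). ZNF678, a zinc-finger protein, and ARSE, a sulfatase, differed by 1.02 and 0.84 (limma adjusted p = 3.8e-10 and 1.6e-08), with the DDX39A libraries around the control level and the SARNP libraries above it.

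LSM14A, a component of cytoplasmic RNA granules, led the genes that both SARNP siRNAs raised and both DDX39A siRNAs lowered against the controls. It was at 2223/2292 and 2470.4/2289 with SARNP siRNAs 3 and 9, 1997/2108 in the controls, and 732/725 and 1644/1581 with DDX39A siRNAs 1 and 4. The rise with SARNP siRNAs was small and DDX39A siRNA 1 gave most of the log2 difference of 1.10 (SE 0.04, limma adjusted p = 8.8e-25). ATP7A, the copper-transporting ATPase, was at 282/234 and 207/213 against 134/133 and 134/128, with controls at 163/168 and a log2 difference of 0.81 (SE 0.08, limma adjusted p = 7.2e-11). NSF (the ATPase of vesicle fusion), MRPL36 (a protein of the mitochondrial ribosome) and SERINC3 (a membrane protein) had the same arrangement and differed by 0.62, 0.54 and 0.29 (limma adjusted p = 3.2e-14, 1.4e-11 and 6.3e-10).

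Noncoding RNAs leaned the other way from the inflammatory genes on the mean of both siRNAs. Of 23 tested nuclear and snoRNA-host noncoding RNAs, 16 were higher with SARNP siRNAs on the mean (26.1% over all genes) and 1 was lower, and 5 were higher in all 4 pairs (3.12% over all genes) with none lower. The median log2 difference was 0.25, and the medians against the controls were 0.04 and -0.09 with SARNP siRNAs 3 and 9 and -0.23 and -0.19 with DDX39A siRNAs 1 and 4. The count of 5 was 2 with DESeq2, 3 without DDX39A siRNA 1 replicate 2 and 8 after the GC trend was taken out. Over all 310 tested genes annotated as noncoding the median was 0.13, and 17 were higher and 2 lower in all 4 pairs (3.12% and 4.33% over all genes). The medians of these 310 against the controls were 0.06 and -0.18 with SARNP siRNAs 3 and 9. They were -0.25 and -0.14 with DDX39A siRNAs 1 and 4, so SARNP siRNA 9 was low as well.

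DANCR, a snoRNA host transcript, was at 296/320.4 in the controls, 284/331 and 226/219 with SARNP siRNAs 3 and 9 and 144/134 and 106/154 with DDX39A siRNAs 1 and 4. DDX39A libraries were at about the same low level and SARNP siRNA 3 at that of the controls, and the log2 difference was 0.97 (SE 0.09, limma adjusted p = 5.1e-12). GAS5, another snoRNA host and a known substrate of nonsense-mediated decay, was at 1012/1016 and 1020.5/1046 against 808/837 and 854/878, with controls at 980.2/992. Only the DDX39A siRNAs were called against the controls for GAS5, and the targets differed by 0.28 (SE 0.04, limma adjusted p = 2.2e-07). SNHG10, SNHG16 and EPB41L4A-AS1 differed by 0.84, 0.25 and 0.43 (limma adjusted p = 3.1e-05, 3.4e-05 and 0.00039). With DESeq2 the 2 list members still apart in all 4 pairs were DANCR and GAS5, so SNHG16 was not among them. SNHG16 also lost that call without DDX39A siRNA 1 replicate 2. SNHG10 was not apart in all 4 pairs with DESeq2 or without DDX39A siRNA 1 replicate 1, and EPB41L4A-AS1 lost that call in 5 of 17 alternatives, with DESeq2 and without either SARNP siRNA 9 library, SARNP siRNA 3 replicate 1 or DDX39A siRNA 1 replicate 2.

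The long nuclear RNAs of speckles and paraspeckles did not follow them. MALAT1 differed by -0.25 (limma adjusted p = 7e-08), with SARNP siRNA 9 low at 2061/2094 and DDX39A siRNA 4 high at 3329/3128. NEAT1 was at 803/843 in the controls, 757/893 with SARNP siRNA 3, 287/269 with SARNP siRNA 9 and 452/456 and 479.7/444 with the DDX39A siRNAs, so that SARNP siRNA 9 and both DDX39A siRNAs were low and the mean difference was 0.06 (limma adjusted p = 0.34). SH3BP5-AS1 and EPB41L4A-AS1 are antisense genes, and reads they share with genes on the other strand cannot be told apart because the strand setting of the count is not stated.

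Of 30 tested TREX and export factors, 7 were higher and 6 lower with SARNP siRNAs on the mean, near the 26.1% and 27.5% over all genes, at a median of 0.01. ZC3H11A, a TREX-associated zinc-finger protein, was the one lower in all 4 pairs: it was at 1254/1284 and 1322/1398 with the SARNP siRNAs, 1584/1588 in the controls and 1749/1783 and 1756/1606 with the DDX39A siRNAs, a log2 difference of -0.39 (SE 0.04, limma adjusted p = 2e-11). ERH was higher in all 4 pairs by 0.19 (limma adjusted p = 0.00012) with overlapping libraries, a call lost in 7 of 17 alternatives: with quantile normalization, DESeq2 or the GC trend taken out, and without SARNP siRNA 3 replicate 2, either SARNP siRNA 9 library or DDX39A siRNA 4 replicate 1. ALYREF and NXF1 did not pass on the mean (0.03 and 0.02, limma adjusted p = 0.44 and 0.65), and ALYREF stood at 4257/3939.7 with DDX39A siRNA 1 and 2637/2817 with siRNA 4, on either side of the SARNP libraries.

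Among 17 exon junction complex and nonsense-mediated decay factors 9 were higher and none lower on the mean (26.1% and 27.5% over all genes), at a median of 0.11. UPF3B, which bridges the exon junction complex to the decay factors, was the one called in all 4 pairs, at 847/745 and 645/690.4 against 471/472 and 558/518, with controls at 651/655 (0.53, SE 0.05, limma adjusted p = 1.2e-11). Genes of the nuclear exosome and its adaptors were higher in 12 of 21 and lower in 5 (26.1% and 27.5% over all genes), at a median of 0.20. Their medians were -0.06 and 0.07 for SARNP siRNAs 3 and 9 against DDX39A siRNA 1, and 0.26 and 0.41 against DDX39A siRNA 4. Among them was SKIV2L2, the exosome's helicase, higher in all 4 pairs by 0.34 (limma adjusted p = 8.1e-09), a call lost without SARNP siRNA 3 replicate 1 or DDX39A siRNA 1 replicate 1. Of 43 speckle and SR protein genes 9 were higher and 13 lower (26.1% and 27.5% over all genes), a balance that turned to 13 higher and 9 lower with quantile normalization. TRA2A and CCNL2, a splicing regulator and a speckle cyclin, were higher in all 4 pairs by 0.39 and 0.36 (limma adjusted p = 3.6e-10 and 3.4e-10). Of 29 nuclear pore genes 11 were higher, 10 lower and none apart in all 4 pairs, and which sign was more frequent changed between alternatives.

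**Figure D4:**
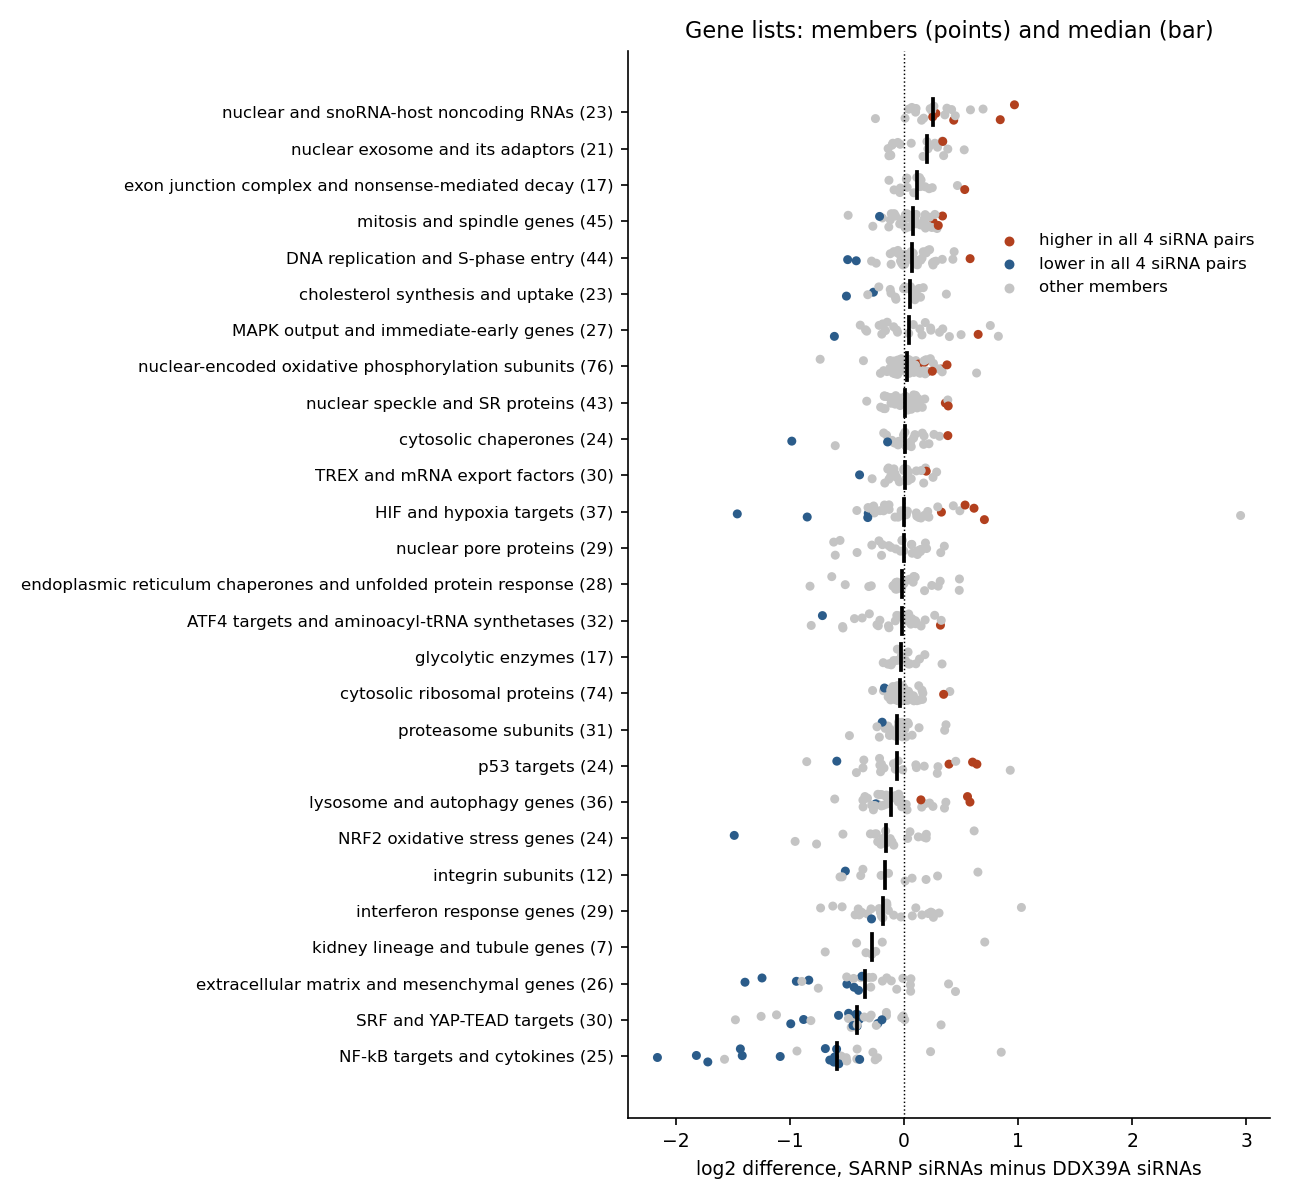
Log2 difference between SARNP and DDX39A siRNAs (horizontal axis) of the tested members of 27 gene lists, 1 point per gene and a bar at the median, with the number tested in brackets. Members apart in all 4 siRNA pairs are coloured, and the 3 lowest medians are those of NF-kB targets (-0.59), SRF and YAP-TEAD targets (-0.41) and matrix genes (-0.34), while noncoding RNAs have the highest (0.25).

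Targets of the hypoxia-inducible factors, which 786-O cells express without hypoxia, VHL being lost, split both ways. Of 37 tested, 14 were higher and 15 lower on the mean (26.1% and 27.5% over all genes), 4 were higher and 4 lower in all 4 pairs (3.12% and 4.33% over all genes), and the median was 0.00. TGFA, a ligand of the EGF receptor, was at 4317/4248 in the controls, 8588/8327 and 7049/6860.1 with SARNP siRNAs 3 and 9 and 3324/3673 and 6274/6417 with DDX39A siRNAs 1 and 4. SARNP siRNAs and DDX39A siRNA 4 lay above the controls and DDX39A siRNA 1 below, and the log2 difference was 0.70 (SE 0.03, limma adjusted p = 8.2e-21). Without SARNP siRNA 9 replicate 1 or DDX39A siRNA 4 replicate 1 it was not apart in all 4 pairs. CA12, a membrane carbonic anhydrase, was at 7951/7743 and 8131/7731 against 5869/6005 and 6556/6768, all above the controls at 4789/4971 (0.33, SE 0.03, limma adjusted p = 5.8e-12).

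Of the paired regulators of glycolysis, PFKFB4 differed by 0.53 and PFKFB3 by -0.85 log2 units, in opposite directions (limma adjusted p = 2e-07 and 2.7e-22). PFKFB3 stood at 2164/2331 and 1252/1254 with SARNP siRNAs 3 and 9, 2413/2324 in the controls and 3116/3245 and 2847/2901 with the DDX39A siRNAs, so that SARNP siRNA 9 was the low one. MXI1, an antagonist of MYC, differed by 0.61, and LOXL2, an enzyme that crosslinks collagen, by -0.32 (limma adjusted p = 5.9e-10 and 6e-11). The calls of PFKFB4 and LOXL2 in all 4 pairs were each lost in 3 of 17 alternatives, PFKFB4 with DESeq2 and without SARNP siRNA 3 replicate 2 or DDX39A siRNA 1 replicate 1, and LOXL2 with quantile normalization and without SARNP siRNA 3 replicate 1 or DDX39A siRNA 1 replicate 1. VEGFA, the angiogenic factor, differed by -0.08 (limma adjusted p = 0.031) with no shared direction of the siRNAs. EPAS1, which encodes HIF-2 alpha, was at 2319.9/2293 and 3727/3402 with SARNP siRNAs 3 and 9 and 1716/1803 and 3506/3515 with DDX39A siRNAs 1 and 4, beside controls at 1739.8/1716, and thus varied more within a target than between targets. Of 17 glycolytic enzymes 4 were higher and 6 lower (26.1% and 27.5% over all genes), with none apart in all 4 pairs. That balance turned to 9 higher and 3 lower with quantile normalization, 7 and 4 after the GC trend was taken out and 5 and 4 without DDX39A siRNA 4 replicate 2.

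On the mean, more cell cycle genes were higher than lower with SARNP siRNAs, by small amounts that the siRNA pairs did not share. Of 45 mitosis and spindle genes 22 were higher and 8 lower (26.1% and 27.5% over all genes), with a median of 0.08, and of 44 replication genes 17 were higher and 6 lower, with a median of 0.07. For SARNP siRNA 9 against DDX39A siRNA 1 these medians were -0.21 and -0.13, and for SARNP siRNA 3 against DDX39A siRNA 4 they were 0.31 and 0.28. CCNE1, the cyclin of S-phase entry, was at 246/239 and 217/216 with the SARNP siRNAs, 265/261 in the controls and 145/135 and 164/171 with the DDX39A siRNAs. DDX39A libraries were the low ones, and the log2 difference was 0.58 (SE 0.07, limma adjusted p = 1.9e-08). AURKB and CCNA2, a mitotic kinase and a cyclin, were higher by 0.34 and 0.26 (limma adjusted p = 7.4e-10 and 7.6e-09). POLD3 and POLE, subunits of replicative polymerases, were lower, at log2 differences of -0.49 and -0.42, and so was the proliferation marker MKI67, at -0.22 (limma adjusted p = 1.9e-11, 5.6e-12 and 1.4e-07). POLE and MKI67 were not apart in all 4 pairs with quantile normalization, POLE also not without SARNP siRNA 3 replicate 1 or after the GC trend was taken out, and MKI67 not without SARNP siRNA 3 replicate 2 or DDX39A siRNA 4 replicate 1.

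Of 24 tested p53 targets 9 were higher and 8 lower (26.1% and 27.5% over all genes). RRM2B, a ribonucleotide reductase subunit, was at 879.7/915 and 644/669 against 507/528 and 528/464, with controls at 659/739 and a log2 difference of 0.60 (SE 0.05, limma adjusted p = 6.8e-13). PLK2, a polo-like kinase, was the opposite, at 3989.6/4004 and 3347/3349.7 with SARNP siRNAs and 5987/6213 and 5041/4903 with DDX39A siRNAs (-0.59, SE 0.03, limma adjusted p = 2.6e-19). SESN1, a stress-induced regulator of growth signalling, was higher by 0.64 (limma adjusted p = 4.7e-07), though not in all 4 pairs with DESeq2 or without SARNP siRNA 3 replicate 2 or DDX39A siRNA 1 replicate 1.

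Some of the largest differences on the mean were not shared by the siRNAs of a target. ANGPTL4, a secreted inhibitor of lipoprotein lipase, was at 1804/1882 with SARNP siRNA 9, and at 100.2/78.8 with SARNP siRNA 3, 17.8/33.2 and 94.5/125 with DDX39A siRNAs 1 and 4 and 35/56.6 in the controls. The mean log2 difference of 2.95 (limma adjusted p = 3.4e-20) was larger than for any gene apart in all 4 pairs other than SARNP, yet SARNP siRNA 3 against DDX39A siRNA 4 did not pass (limma adjusted p = 0.22). EDN2, an endothelin, was at 0.675/3.97 with SARNP siRNA 9, 197/220.0 with DDX39A siRNA 1, and 25/53.6 and 41/33.8 with the other siRNAs, above the controls at 23.3/23.5 (mean difference -3.10, limma adjusted p = 1.1e-13).

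SLC7A2, a cationic amino acid transporter, was high with SARNP siRNA 3 alone, at 412/507, with the other 3 siRNAs between 41.9 and 64.5 and the controls at 47.7/61.9. MMP9, a gelatinase, was high with DDX39A siRNA 4, at 284/276, beside 68.7/82.5 with DDX39A siRNA 1, and STMN3, a microtubule regulator, behaved alike, at 244/227 beside 31.8/28.6. TMCC3 was high with SARNP siRNA 9, at 241/226, beside 34.4/25.2 with SARNP siRNA 3.

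Genes higher with SARNP siRNAs had transcripts poorer in GC than genes lower with them. The median GC content was 43.0% for the genes higher in all 4 pairs, 52.9% for the lower ones and 48.4% over 11523 tested genes with an annotated transcript. With the genes sorted by GC content and cut into 5 equal bins, the median log2 difference went from 0.08 in the lowest bin through 0.05, 0.00 and -0.04 to -0.08 in the highest. The share higher in all 4 pairs went from 5.64% to 0.911% and the share lower from 2.34% to 6.25%. DDX39A siRNA 4 had the steepest gradient: against the controls, the median of DDX39A siRNA 4 went from -0.15 in the lowest bin to 0.12 in the highest, beside -0.03 to 0.00 for DDX39A siRNA 1, -0.01 to 0.01 for SARNP siRNA 3 and 0.00 to -0.05 for SARNP siRNA 9. SARNP siRNAs 3 and 9 against DDX39A siRNA 4 went from 0.15 to -0.11 and from 0.14 to -0.17, while against DDX39A siRNA 1 they went from 0.02 to 0.00 and from 0.04 to -0.05. After a smooth trend of level with GC content was taken out of each library, a step chosen after seeing the data, 378 genes were higher and 508 lower in all 4 pairs, and 720 of the 870 remained. NF-kB targets then had 14 members lower in all 4 pairs, matrix genes 8 and SRF and YAP-TEAD targets 7.

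**Figure D5:**
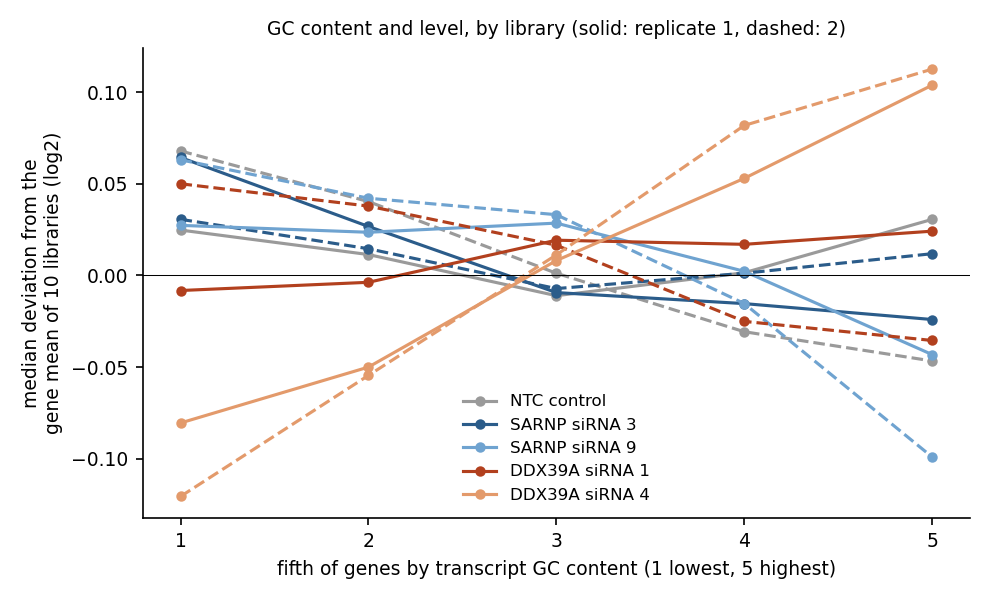
Median deviation of a library from the mean of 10 libraries (vertical axis, log2) for tested genes in 5 bins of transcript GC content (horizontal axis, lowest to highest), 1 line per library. Between the lowest and highest bin both DDX39A siRNA 4 libraries rise, by 0.18 and 0.23, and the other 8 change by -0.16 to 0.03.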

How the data were processed

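Poly(A) RNA of 786-O cells was sequenced from directional libraries on a NextSeq 550, per the labels' protocols. The submitters' processing notes name the build hg19 and the tools STAR, Picard, HTSeq and DESeq2, while versions, annotation, strand setting and gene filter are not given in the sources used here. The deposited values are normalized counts, a signal per gene symbol in which the authors scaled the counts of each library by its own size factor. In the 10 libraries 100% of the values were multiples of what 1 read is worth (tolerance 0.0001 of a read), so whole reads could be computed for the count-based alternatives. Reads without a feature (5.79% to 6.46%) and ambiguous reads (1.57% to 1.65%) were kept out. Groups follow the sample titles, and 1 treatment label that misspells SARNP was read as SARNP. The 2 other tables were normalized apart and not used.

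The fit used log2(value + 1) of the 10 libraries, with a mean for each siRNA and for the controls, in limma 3.58.1 (lmFit, contrasts.fit, eBayes with trend) in R 4.3.3, on genes with a table mean of at least 10. It had 5 residual and 31.8 prior degrees of freedom. Fold changes are on the log2(value + 1) scale, which understates changes of low genes. All p-values are two-sided and Benjamini-Hochberg adjusted over all 11673 genes, separately for each contrast, and a gene was called below 0.05. Gene lists got no test, only counts and medians. The members, lists, tests and named genes were chosen with earlier results of these data known. Named were the targets, up to 12 genes per direction apart in all 4 pairs with the largest smallest pair difference (mean of at least 50, no overlap of libraries, neither pseudogenes nor clone-based names), for each list up to 4 members per direction apart in all 4 pairs, up to 6 per direction called against the controls with opposite signs for both targets, and up to 3 per direction called on the mean but not in all pairs. List members outside this rule, such as FN1, LIF, IL11, NEAT1 or EPAS1, and the genes in the plots were picked after their values were seen. Some genes that the rule names are not reported here.

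GC content, length and gene type came from GENCODE release 29 transcripts matched by symbol, and promoter windows from RefSeq. The scripts were tested on simulated data with known changes. Alternatives were quantile normalization, a pseudocount of 5, no filter on low values or a mean of at least 50, the whole reads tested with DESeq2 1.42.0 or with edgeR 4.0.16 (TMM scaling), the 8 knockdown libraries alone, a replicate block, each library left out, siRNAs as the unit and, chosen after seeing the data, removal of a GC trend (lowess span 0.3). Figures were drawn with matplotlib 3.10.9.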

Additional observations from a re-analysis of the deposited data

How the results depend on the processing

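None of the genes picked by the naming rule reversed direction in any alternative run. Genes named outside that rule, such as ALYREF, NXF1, VEGFA, NFKBIA or ACTB, were not followed gene by gene. With quantile normalization 3278 genes were higher and 2966 lower on the mean, so that more were higher than lower. The balance of higher to lower members then turned in the lists of ribosomal proteins, speckle proteins, glycolytic enzymes and hypoxia targets. For hypoxia targets it went from 14 higher and 15 lower to 14 and 13. Lists with nearly equal counts turned in other alternatives too. The counts on the mean (3047 higher, 3214 lower) stayed within 1.5 times except with siRNAs as the unit, where 0 genes were higher and 0 lower, a fit with 2 residual degrees of freedom. The counts in all 4 pairs (364 and 506) were within 1.5 times except with DESeq2, which called 204 higher, and 351 lower. With each library left out in turn the counts were 2676 to 2885 and 2903 to 3087 on the mean, and 258 to 339 and 375 to 462 in all 4 pairs. The lone library of a group is then assumed to vary like the other groups. Genes picked by the naming rule kept their calls on the mean, except HSPH1 with quantile normalization (-0.06, limma adjusted p = 0.073) and all of them with siRNAs as the unit. Of the 870 genes, 554 remained with DESeq2, 623 without SARNP siRNA 3 replicate 1, 769 with quantile normalization and 851 with edgeR. The NF-kB count of 13 ranged from 10 to 14 and the matrix count of 8 from 7 to 9. The oxidative phosphorylation count of 6 fell to 1 with DESeq2, to 2 without SARNP siRNA 3 replicate 1, SARNP siRNA 3 replicate 2 or DDX39A siRNA 1 replicate 2, and to 3 without DDX39A siRNA 4 replicate 1. The cause was not tested.

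The fit with a replicate block called 3033 higher and 3206 lower on the mean and 361 and 499 in all 4 pairs. Deviations of libraries with the same replicate number correlated at -0.06 to 0.04 between groups, so no effect shared by replicate number was seen. Whether libraries with the same number were handled together cannot be told from these correlations. Calls with differences near 0.1 log2 units rest on 2 libraries per siRNA.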

Other observations

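Gene groups outside the comparisons above are given here with their counts on the mean, to be read against 26.1% of all genes higher and 27.5% lower. Of 29 tested interferon response genes 13 were lower and 5 higher with SARNP siRNAs on the mean, at a median log2 difference of -0.19, though the median was 0.16 for SARNP siRNA 3 against DDX39A siRNA 4. SERPINA1, a protease inhibitor of the acute phase, was lower with SARNP siRNAs, at 1402/1388 and 1830.2/1736 against 2977/3057 and 2727/2446 with controls at 1935/2076 (-0.82, limma adjusted p = 8e-21). Among 24 NRF2 targets 14 were lower and 4 higher (median -0.16), though the median was 0.21 for SARNP siRNA 3 against DDX39A siRNA 1. HMOX1 was the one NRF2 target apart in all 4 pairs. Of 36 lysosome and autophagy genes 18 were lower and 7 higher (median -0.12), though the median was 0.16 for SARNP siRNA 3 against DDX39A siRNA 1. MAP1LC3B, which marks autophagosomes, was higher in all 4 pairs, with SARNP siRNA 9 at 1872/1927 and SARNP siRNA 3 at 1275/1202 beside 1070.4/1084 and 968/994 (0.58, limma adjusted p = 6.9e-16). Of 31 proteasome subunits 14 were lower and 3 higher (median -0.06), though the median was 0.06 for SARNP siRNA 9 against DDX39A siRNA 1.

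Of 76 nuclear-encoded subunits of oxidative phosphorylation 26 were higher and 12 lower (median 0.03), and 6 were higher in all 4 pairs (3.12% over all genes). That count of 6 fell to 1 with DESeq2 and to 2 without either SARNP siRNA 3 library or without DDX39A siRNA 1 replicate 2. Among the 6 was NDUFA8 of complex I, at 862/884 and 892/894 against 757/644 and 698/725 (0.32, limma adjusted p = 1.9e-07). Of 74 cytosolic ribosomal protein genes 7 were higher and 17 lower (median -0.03), but 16 higher and 5 lower with quantile normalization, 10 and 6 without DDX39A siRNA 4 replicate 2, 9 and 6 without DDX39A siRNA 1 replicate 1 and 9 and 8 without SARNP siRNA 9 replicate 1. RPL15 was higher by 0.35 in all 4 pairs (limma adjusted p = 6.4e-12). HSPB8, a small heat shock protein, was lower in all 4 pairs, at 456/469 and 414/433 against 678/631 and 1164/1184 (-0.98, limma adjusted p = 1.4e-19), with the highest level in DDX39A siRNA 4. JUNB, an immediate-early transcription factor, was lower (-0.61, limma adjusted p = 5.9e-15) and PHLDA1, a target of MAPK signalling, higher (0.65, limma adjusted p = 2.5e-15), the latter mostly with SARNP siRNA 9 at 2065/2219.9 beside 1379/1197 with siRNA 3. LSS and MVD, enzymes of cholesterol synthesis, were lower in all 4 pairs (-0.51 and -0.27, limma adjusted p = 6.4e-10 and 4.8e-06), while 3 of 23 genes of that pathway were higher and 7 lower on the mean, with a median of the other sign (0.05). TRIB3, a target of the stress factor ATF4, was lower (-0.72, limma adjusted p = 6.8e-18), with SARNP siRNA 9 at 574/571 and SARNP siRNA 3 at 1156/1132 beside controls at 974/987. Some of these calls in all 4 pairs were lost when 1 library was left out: SARNP siRNA 3 replicate 1 for PHLDA1, LSS and MAP1LC3B, SARNP siRNA 3 replicate 2 for TRIB3, SARNP siRNA 9 replicate 2 for MVD, DDX39A siRNA 4 replicate 1 for PHLDA1 and TRIB3, and DDX39A siRNA 1 replicate 1 for LSS. Those of PHLDA1, TRIB3 and MVD were also lost after the GC trend was taken out, those of PHLDA1 and LSS with DESeq2, and that of LSS with edgeR.

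By structure, the genes apart in all 4 pairs had longer 3′ untranslated regions than all genes with a coding transcript, with medians of 1463 bases for those higher with SARNP siRNAs and 1240 for those lower, against 1046.5. The median number of exons was 8 for the higher genes, 11 for the lower ones and 9 over all.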
